A study of Homo sapiens with 36 samples.

Results

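Genes of cholesterol and fatty acid synthesis were followed through DUSP4 knockdown and MEK inhibition in 3 human breast cancer cell lines. The set was a list of 32 genes covering the mevalonate steps, the sterol steps, the SREBP regulators, cholesterol transport and fatty acid synthesis. A member was measured where a probe carried its symbol alone, and where a gene had several such probes the one brightest on average over the 36 arrays was taken. This gave 29 members out of the 17958 genes tested, and the other 3 were not analysed here. None of the measured members was dim: each averaged above the median probe level of 5.27.

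The lines MDA231 (MDA-MB-231), SUM159PT and BT549 come from breast tumours of the triple-negative kind, and each supplied 4 groups of 3 arrays. In siDUSP4 cells 10 nM of siRNA against DUSP4 was given with DMSO. In AZD6244 4h and AZD6244 24h cells a control siRNA was given and 1 uM selumetinib (AZD6244), an inhibitor of the ERK-activating kinases MEK1 and MEK2, was added 4 h or 24 h before harvest. In siCONTROL cells the same control siRNA was given with DMSO. All cells were reverse transfected and harvested 96 h later, and the 3 lines grew in different serum-containing media, that of SUM159PT with hydrocortisone. The labels of 24 of the 36 arrays contradict themselves: where the title and cell line entry say SUM159PT, the source name and description say BT549, and the other way round. The titles were followed, and every statement on these lines rests on that choice. The labels do not say whether replicates A, B and C were separate cultures, so the p-values cover no more than the spread of these samples, which may be technical. In such bulk RNA, fewer cells with a transcript and less transcript per cell cannot be told apart.

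Cells make cholesterol from acetyl-CoA through mevalonate, squalene and lanosterol, and fatty acids from acetyl-CoA through malonyl-CoA. The transcription factors SREBP-1 and SREBP-2, encoded by SREBF1 and SREBF2, switch on most of these enzymes once SCAP has carried them out of the endoplasmic reticulum, and INSIG1 and INSIG2 hold SCAP back when sterols are plentiful. SREBPs are known to bind sterol elements and E-boxes, often beside boxes for NF-Y and Sp1, and SREBF2 and INSIG1 are themselves targets. DUSP4 removes the activating phosphates from ERK and related kinases in the nucleus.

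The start-site regions of 3 members are shown because SREBF2 was the single member to hold the sterol element searched for, and because INSIG1 and SCD had the largest changes (these were picked after their values were seen). The sequences are RefSeq promoters on GRCh38.p14, from 250 bases before to 50 bases after the start, all on the + strand. Capitals mark the sterol element (TCACNCCAC), the NF-Y box (CCAAT) and the E-box (CACGTG), each on either strand. SREBF2 lies at chr22:41832855-41833154, INSIG1 at chr7:155297628-155297927 and SCD at chr10:100346983-100347282.
SREBF2: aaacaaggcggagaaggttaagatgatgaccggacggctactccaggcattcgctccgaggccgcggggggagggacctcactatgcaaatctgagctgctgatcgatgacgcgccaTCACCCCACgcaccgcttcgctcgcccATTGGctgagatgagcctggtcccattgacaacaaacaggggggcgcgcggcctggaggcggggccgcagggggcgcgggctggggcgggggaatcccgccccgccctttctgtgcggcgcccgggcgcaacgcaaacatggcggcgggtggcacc
INSIG1: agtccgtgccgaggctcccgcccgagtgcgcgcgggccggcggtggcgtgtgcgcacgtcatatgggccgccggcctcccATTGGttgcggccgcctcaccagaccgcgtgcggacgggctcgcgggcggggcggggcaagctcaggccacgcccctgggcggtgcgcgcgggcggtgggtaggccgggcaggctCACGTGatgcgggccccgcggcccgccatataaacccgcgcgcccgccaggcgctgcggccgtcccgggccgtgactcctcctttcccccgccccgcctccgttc
SCD: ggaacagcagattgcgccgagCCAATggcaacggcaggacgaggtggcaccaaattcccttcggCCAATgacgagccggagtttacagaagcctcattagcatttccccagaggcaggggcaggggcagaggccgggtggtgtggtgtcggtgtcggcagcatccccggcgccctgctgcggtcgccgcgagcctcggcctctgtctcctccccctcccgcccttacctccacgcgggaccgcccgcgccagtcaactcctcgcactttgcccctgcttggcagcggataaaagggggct
The sterol element of SREBF2 reads TCACCCCAC and starts 133 bases before the start site, with an NF-Y box 106 bases before that site. INSIG1 holds an E-box that starts 55 bases before its start site and an NF-Y box 170 bases before it. SCD holds NF-Y boxes that start 229 and 186 bases before its start site. Over the 27 members with a promoter in the table, the sterol element was in 1 (3.7%), against 1.15% of 13864 promoters of tested genes. The E-box was in 4 members (INSIG1, LSS, SC5D and SCAP, 14.8%), against 8.89% of promoters. The NF-Y box was in 16 members (59.3%), against 36.4% of promoters, and the GC box GGGCGG, a letter pattern of Sp1 sites, in 25 (92.6%), against 60.0%. No motif shares bases with another in the capitals shown. A match is a string of letters in this window and not a shown binding site.

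Values are log2 signal, and changes are log2 differences from siCONTROL of the same line with limma's standard error (SE). A gene was called at a Benjamini-Hochberg adjusted p under 0.05 in limma's fit of all 36 arrays and all 17958 genes. The siDUSP4, 4 h and 24 h comparisons of a line share its siCONTROL arrays. The knockdown was seen in each line: DUSP4 averaged 7.64 ± 0.18 in siDUSP4 and 10.06 ± 0.08 in siCONTROL cells of MDA231 (SD, n = 3 each). It averaged 5.30 ± 0.02 in siDUSP4 and 7.14 ± 0.12 in siCONTROL cells of SUM159PT, and 4.89 ± 0.40 in siDUSP4 and 7.13 ± 0.09 in siCONTROL cells of BT549. The mean of 7.64 in MDA231 siDUSP4 cells was thus still above the siCONTROL means of the other lines. As siDUSP4 was the only knockdown treatment, effects of the siRNA beyond DUSP4 cannot be told apart from those of the knockdown. DUSP4 also averaged lower with selumetinib than in siCONTROL cells. At 4 h and 24 h it averaged 7.70 and 8.80 in MDA231, 5.79 and 6.29 in SUM159PT, and 6.47 and 6.41 in BT549. Of 8 ERK output genes, 8, 6 and 5 were called lower after 4 h of selumetinib in MDA231, SUM159PT and BT549. Of all genes, 14.5%, 3.81% and 0.49% were. After 24 h 8, 5 and 5 were called lower, where 10.3%, 2.94% and 12.4% of all genes were. With siDUSP4, 3, 1 and 1 were called lower, where 9.77%, 1.78% and 9.22% of all genes were. In the same order 0, 0 and 1 were called higher, where 7.86%, 1.05% and 4.97% of all genes were. In MDA231 all 8 were below 0 with siDUSP4, at a median of -0.41. RB1, whose loss is known in BT549, averaged 10.31 in MDA231, 9.40 in SUM159PT and 6.83 in BT549 siCONTROL arrays by title. In BT549 it read 8.002, 8.145 and 7.949 in siDUSP4 arrays, against 6.706, 7.008 and 6.780 in siCONTROL arrays, so the groups did not overlap. CDKN2A averaged 10.02 in siDUSP4 and 9.82 in siCONTROL arrays of BT549, and between 3.92 and 4.48 in every group of the other lines. The 4 mesenchymal markers VIM, ZEB1, CD44 and FN1 were above 9 in every group, while among 6 luminal markers ESR1 and PGR lay under the median probe in every group and GATA3, FOXA1, KRT8 and KRT18 above it, except FOXA1 in BT549 at 24 h. Of the 3 blood, 3 endothelial and 4 adipocyte markers measured, LYZ, PTPRC, PECAM1 and PLIN1 passed it in some groups and the others in none. Array medians ran from 5.12 to 5.40. The lowest upper quartiles were 7.48, in array B of MDA231 at 4 h, and 7.50, in array A of BT549 at 24 h, and the number of arrays limits the precision.

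In MDA231, DUSP4 knockdown lowered 16 of the 29 members and raised 0, where 9.77% of all genes were called lower and 7.86% higher. The median member changed by -0.41, against 0.01 over all genes, and 23 of 29 members were below 0. The arrays of siDUSP4 lay wholly below those of siCONTROL for 18 members, against 18.8% of all genes, and wholly above for 0, against 17.5%. The falls reached each class: 2 of 6 mevalonate genes, 4 of 9 sterol genes, 4 of 5 SREBP regulators, both transport genes and 4 of 7 fatty acid genes. The heat map of all changes sets this column beside the other comparisons.

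**Figure D1:**
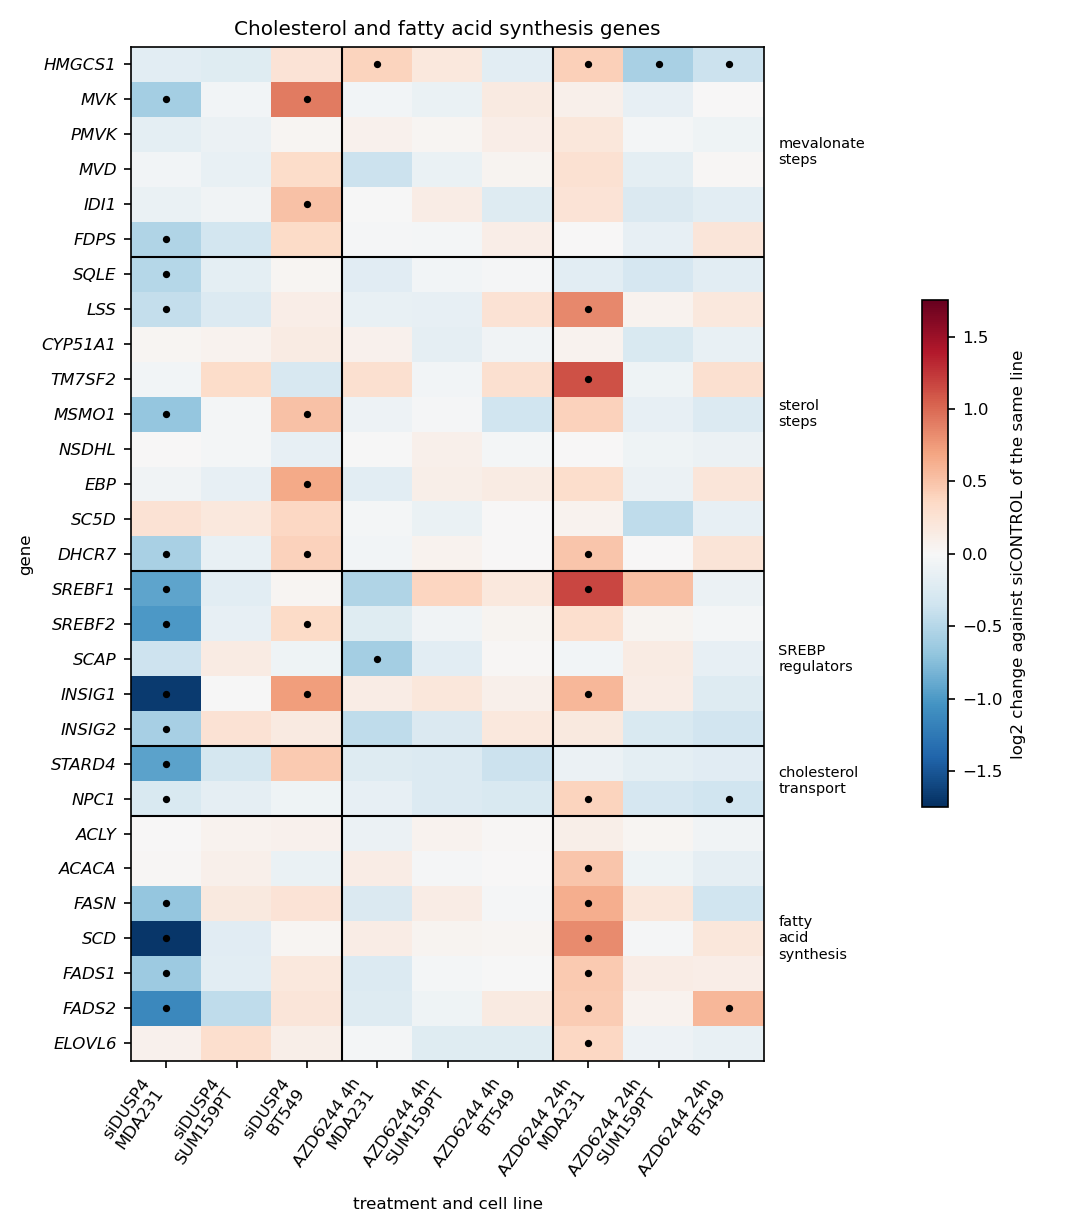
Log2 change against siCONTROL of the same line (colour) for the 29 measured members (rows, grouped by role) in each treatment and line (columns); dots mark limma calls at an adjusted p under 0.05. The MDA231 siDUSP4 column holds 16 falls, the BT549 siDUSP4 column 7 rises and the MDA231 24 h column 13 rises.

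Stearoyl-CoA desaturase, SCD, makes monounsaturated from saturated fatty acids and fell the most. It read 9.36, 9.25 and 9.25 in MDA231 siDUSP4 arrays, against 11.16, 10.93 and 10.86 in siCONTROL arrays. The groups were far apart, and the change of -1.70 (SE 0.10, limma adjusted p 1.5e-14) left 30.8% of the control level. INSIG1, the sterol-regulated anchor of SCAP, read 8.49, 8.34 and 8.45 in siDUSP4 arrays, against 10.30, 10.03 and 10.00 in siCONTROL arrays. All 3 knockdown arrays lay below all control arrays, with a change of -1.68 (SE 0.14, limma adjusted p 1.1e-10), or 31.2% of control. FADS2, the delta-6 desaturase of polyunsaturated fatty acids, read 9.14, 9.10 and 9.13 in siDUSP4 arrays, against 10.32, 10.19 and 10.22 in siCONTROL arrays. This was a fall of 1.12 on the log2 scale (SE 0.15, limma adjusted p 9.4e-07) without overlap.

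The gene of the sterol-regulated transcription factor itself, SREBF2, read 7.946, 7.964 and 8.002 in MDA231 siDUSP4 arrays, against 8.872, 8.995 and 9.061 in siCONTROL arrays. The groups did not overlap, and the change was -1.01 (SE 0.11, limma adjusted p 2.7e-08), or 49.8% of control. SREBF1, the factor better known for fatty acid genes, read 6.58, 7.02 and 6.95 in siDUSP4 arrays, against 7.63, 7.65 and 8.04 in siCONTROL arrays. Its change was -0.92 (SE 0.19, limma adjusted p 0.00061), again with no shared range. INSIG2, the second anchor, changed by -0.58 (SE 0.18, limma adjusted p 0.023). Only SCAP, the escort protein, was not called among the 5 regulators, at -0.36.

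STARD4, which carries cholesterol between membranes, read 7.62, 7.41 and 7.75 in MDA231 siDUSP4 arrays, against 8.81, 8.48 and 8.31 in siCONTROL arrays. It fell by 0.94 on the log2 scale (SE 0.18, limma adjusted p 0.00033), with the groups apart. NPC1, which exports cholesterol from lysosomes, changed less, by -0.27. FADS1, the delta-5 desaturase, read 10.33, 10.43 and 10.44 in siDUSP4 arrays, against 11.01, 11.04 and 11.06 in siCONTROL arrays. The groups were apart, and it changed by -0.64 (SE 0.09, limma adjusted p 7.5e-06). FASN, the fatty acid synthase, changed by -0.68. ACLY and ACACA, which supply acetyl-CoA and malonyl-CoA, were at 0.01 and 0.02, and the elongase ELOVL6 at 0.08, and none of these was called.

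On the sterol steps, SQLE, the squalene epoxidase, read 8.27, 8.18 and 8.26 in MDA231 siDUSP4 arrays, against 8.87, 8.65 and 8.67 in siCONTROL arrays. It fell by 0.50 on the log2 scale (SE 0.10, limma adjusted p 0.00029), and the arrays did not overlap. The other called sterol genes were MSMO1, a methylsterol oxidase, at -0.67, DHCR7, the last reductase to cholesterol, at -0.57, and LSS, the lanosterol synthase, at -0.41. The mevalonate calls were MVK, the mevalonate kinase, at -0.60 and FDPS, the farnesyl diphosphate synthase, at -0.52. CYP51A1, the lanosterol demethylase, was at 0.03, NSDHL, a sterol dehydrogenase, at 0.00, and HMGCS1, the HMG-CoA synthase, at -0.19, none of them called. Of the 16 falls, 12 were called under every alternative tried. INSIG2 lost the call without siCONTROL A or B or siDUSP4 A or B (adjusted p 0.056 to 0.09), MVK without siCONTROL B or C or siDUSP4 A (0.06 to 0.067), NPC1 without any 1 of the 6 arrays or in a fit of MDA231 alone (0.058 to 0.19), and LSS in the fit of MDA231 alone (0.079). Without single arrays the count was 13 to 15. Summed over 4 mesenchymal markers, log2 levels were 45.1 to 45.2 in MDA231 siDUSP4 arrays and 45.6 to 45.7 in siCONTROL arrays. Over 6 luminal markers the sums were 42.5 to 43.2 in siDUSP4 arrays and 42.0 to 42.1 in siCONTROL arrays. Over 3 blood markers they were 13.015 to 13.132 in siDUSP4 arrays and 12.005 to 12.107 in siCONTROL arrays. Over 3 endothelial markers they were 14.966 to 15.108 in siDUSP4 arrays and 15.582 to 16.155 in siCONTROL arrays. The adipocyte sums overlapped, and the part of these lists in the falls was not tested.

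**Figure D2:**
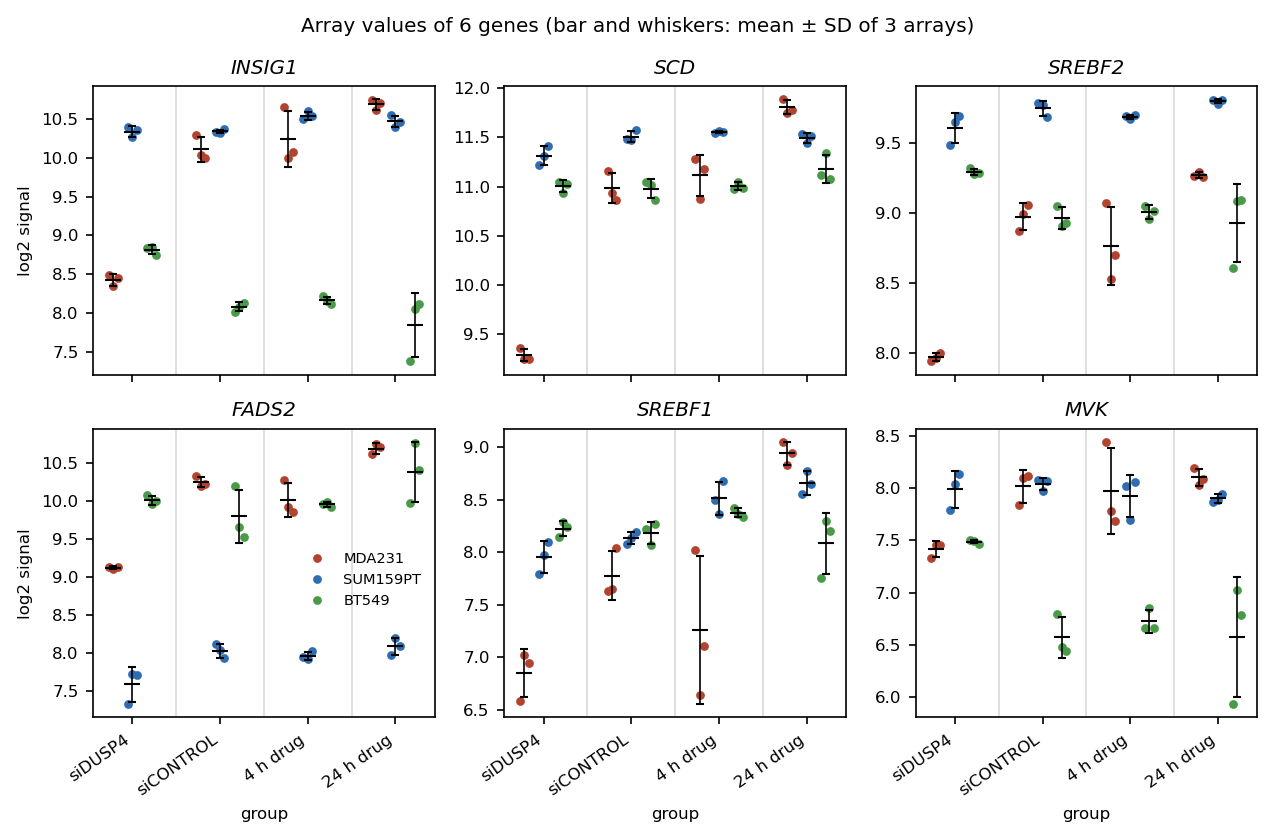
Log2 signal (vertical axis) of 6 members on each array, by group (horizontal axis) and cell line (colour), with the mean and SD of 3 arrays. MDA231 siDUSP4 arrays lie below the siCONTROL arrays of that line for all 6, while for INSIG1, SREBF2 and MVK the BT549 siDUSP4 arrays lie above theirs.

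In BT549 the same knockdown raised 7 of the 29 members and lowered 0, where 4.97% of all genes were called higher and 9.22% lower. The median member changed by 0.19, against 0.01 over all genes, and 24 of 29 members were above 0. Arrays of siDUSP4 lay wholly above siCONTROL for 14 members, against 18.8% of all genes, and wholly below for 1, against 19.9%. The calls were 2 of 6 mevalonate genes, 3 of 9 sterol genes and 2 of 5 regulators, and none of the 7 fatty acid genes or 2 transport genes. The count depended on single arrays: it was 2 without siCONTROL B, siCONTROL C or siDUSP4 C, 3 without siDUSP4 A or B or with BT549 arrays alone, 8 without siCONTROL A, and 14 after repeated quantile normalization. That normalization also took the calls higher over all genes from 892 to 1744. INSIG1 and MVK were called under every alternative, while the other 5 had adjusted p values of 0.052 to 0.19 where they lost the call. The 4 mesenchymal markers summed to 43.3 to 43.4 in BT549 siDUSP4 arrays and 44.7 to 44.9 in siCONTROL arrays. The 6 luminal markers summed to 37.8 to 38.2 in siDUSP4 arrays and 38.6 to 39.0 in siCONTROL arrays. The 3 blood markers summed to 11.83 to 12.46 in siDUSP4 arrays and 11.42 to 11.75 in siCONTROL arrays. The part of these lists in the rises was not tested.

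MVK rose the most, reading 7.50, 7.49 and 7.47 in BT549 siDUSP4 arrays, against 6.80, 6.48 and 6.44 in siCONTROL arrays. With no overlap, its change was 0.91 (SE 0.18, limma adjusted p 0.00043). INSIG1 read 8.84, 8.85 and 8.75 in siDUSP4 arrays, against 8.02, 8.08 and 8.13 in siCONTROL arrays. It rose by 0.74 (SE 0.14, limma adjusted p 0.00027), or to 167% of control. EBP, the sterol isomerase, read 8.19, 8.09 and 8.28 in siDUSP4 arrays, against 7.92, 7.37 and 7.28 in siCONTROL arrays, where replicate A stood above the others. Its change was 0.67 (SE 0.19, limma adjusted p 0.015).

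The smaller rises in BT549 included IDI1, the isopentenyl diphosphate isomerase, which read 9.53, 9.38 and 9.42 in siDUSP4 arrays, against 9.09, 8.89 and 8.83 in siCONTROL arrays. Its change of 0.51 (SE 0.18) was just past the threshold, with a limma adjusted p of 0.0497. MSMO1 changed by 0.51 (SE 0.16, limma adjusted p 0.026) and DHCR7 by 0.40 (SE 0.12, limma adjusted p 0.026). SREBF2 read 9.32, 9.28 and 9.29 in siDUSP4 arrays, against 9.05, 8.91 and 8.93 in siCONTROL arrays, a change of 0.33 (SE 0.11, limma adjusted p 0.036). With the replicate letter as a block its adjusted p was 0.06. SCD, the gene with the largest fall in MDA231, was at 0.03 in BT549, with a 95% interval from -0.17 to 0.22. STARD4 was at 0.46, not called, and SREBF1 at 0.04.

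In SUM159PT, siDUSP4 gave 0 calls among the 29 members in limma in either direction, where 1.05% of all genes were called higher and 1.78% lower. The siDUSP4 arrays lay wholly below siCONTROL for 10 members and wholly above for 7, against 19.9% and 12.4% of all genes. At an unadjusted p under 0.05, 2 members were higher and 3 lower, but the share of all genes at that threshold was not counted. The median member was at -0.10, against -0.04 over all genes, and values ran from -0.44 for FADS2 to 0.33 for TM7SF2, a sterol reductase gene. INSIG1 read 10.39, 10.26 and 10.36 in SUM159PT siDUSP4 arrays, against 10.33, 10.32 and 10.37 in siCONTROL arrays. Its change of 0.00 had a 95% interval from -0.28 to 0.28, and the groups overlapped. SREBF2 was at -0.14 with an interval from -0.36 to 0.08.

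The responses to siDUSP4 differed between the lines for 16 of the 29 members by limma's F test, where 15.5% of all genes did. Set directly against each other, the MDA231 change was below the BT549 change for 14 members and above it for 0, where 5.99% of all genes were called lower and 7.34% higher. INSIG1 differed by -2.42 (SE 0.19, limma adjusted p 2.0e-10), SCD by -1.72 and MVK by -1.51. Other differences beyond 1 in size were STARD4 at -1.40, FADS2 at -1.34, SREBF2 at -1.34 and MSMO1 at -1.18. Called lower in MDA231 and higher in BT549 were 5 members, MVK, MSMO1, DHCR7, INSIG1 and SREBF2, where 0.462% of all genes were. Of these, INSIG1 kept both calls under every alternative, MVK lost the one in MDA231 in some, and MSMO1, DHCR7 and SREBF2 lost the one in BT549 in some. Against SUM159PT, the MDA231 change was lower for 7 members and higher for 0, where 3.54% of all genes were called lower and 3.15% higher. They were INSIG1 at -1.68, SCD at -1.50, SREBF2 at -0.87, FASN and INSIG2 at -0.84 each, FADS2 at -0.69 and FADS1 at -0.44. Between SUM159PT and BT549, MVK at -0.96, INSIG1 at -0.74 and FDPS at -0.65 were lower and TM7SF2 at 0.61 higher in SUM159PT, where 2.37% of all genes were called lower and 3.26% higher.

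**Figure D3:**
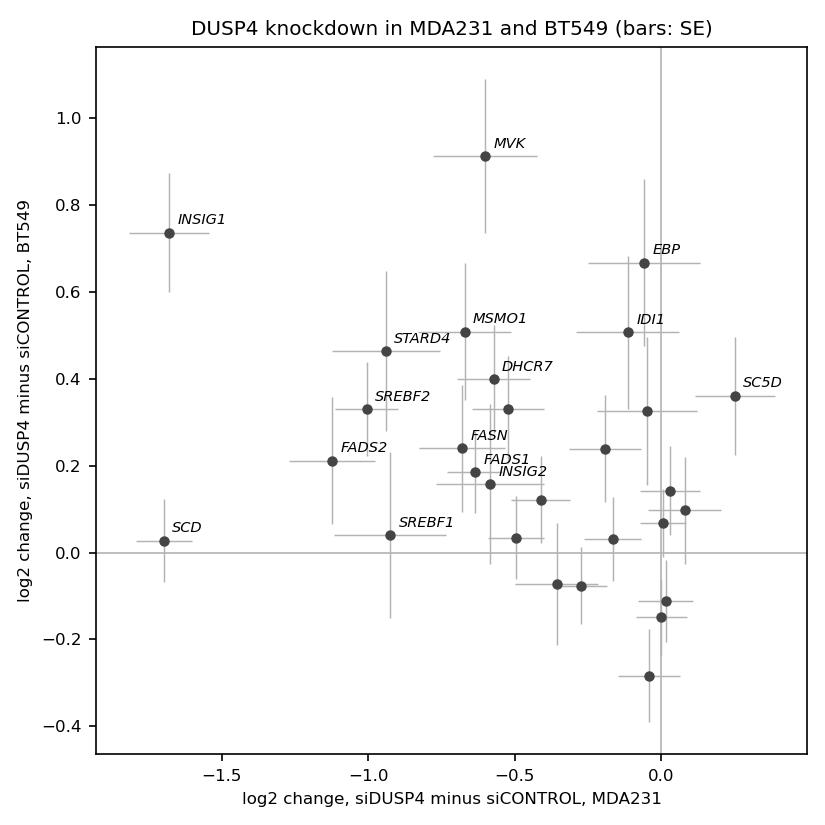
Log2 change with siDUSP4 in MDA231 (horizontal axis) and in BT549 (vertical axis), 1 point per member with SE bars. INSIG1 lies at -1.68 in MDA231 and 0.74 in BT549, and SCD at -1.70 in MDA231 and 0.03 in BT549.

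Averaged over the 3 lines, siDUSP4 lowered 9 members and raised 1, where 11.3% of all genes were called lower and 7.43% higher. SCD had the largest mean change, -0.62 (SE 0.06, limma adjusted p 5.4e-10), with changes of -1.70, -0.19 and 0.03 in MDA231, SUM159PT and BT549. INSIG1 at -0.31 and SREBF2 at -0.27 were among the 9 although each was called higher in BT549, at 0.74 and 0.33. LSS at -0.18 lost its call with the replicate letter as a block (adjusted p 0.053) and without any 1 of 7 single arrays (up to 0.083), and SREBF1 at -0.35 without any 1 of 3 (0.051 to 0.059). For LSS these were MDA231 siCONTROL B or C or siDUSP4 A, SUM159PT siCONTROL A or siDUSP4 A, and BT549 siCONTROL C or siDUSP4 B, and for SREBF1 MDA231 siCONTROL C or siDUSP4 A and SUM159PT siDUSP4 A. The single rise was SC5D, the lathosterol oxidase, at 0.27 (SE 0.08, limma adjusted p 0.014), with changes of 0.25, 0.19 and 0.36 in MDA231, SUM159PT and BT549.

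After 4 h of selumetinib few members were called. In MDA231, 1 member was called higher and 1 lower, where 1.11% of all genes were called higher and 14.5% lower. The median member was at -0.08, against -0.13 over all genes. HMGCS1 read 8.89, 8.38 and 8.62 in 4 h arrays, against 8.24, 8.28 and 8.18 in siCONTROL arrays. It rose by 0.39 (SE 0.12, limma adjusted p 0.028) without overlap. SCAP read 8.56, 7.60 and 7.77 in 4 h arrays, against 8.40, 8.62 and 8.71 in siCONTROL arrays. The groups overlapped because of array A, and the change was -0.60 (SE 0.14, limma adjusted p 0.0049). Neither call held under every alternative: without 4 h array A 11 members were called lower, without array B or C 0 were, and repeated quantile normalization gave 5 higher with a median of 0.09. The share of all genes called without single arrays is not given here, so the 11 cannot be read as particular to the members. Upper quartiles were 7.95, 7.478 and 7.665 in 4 h arrays A, B and C. Repeated quantile normalization took the calls over all genes from 200 higher and 2598 lower to 505 and 1363. In SUM159PT and BT549, 0 members were called by limma in either direction, where 0.473% and 0.161% of all genes were called higher and 3.81% and 0.49% lower. At an unadjusted p under 0.05, 0 and 2 members were higher and 1 and 2 lower, but the share of all genes was not counted there. Averaged over lines, NPC1 at -0.22 and SCAP at -0.25 were called lower and 0 higher, where 12.7% of all genes were called lower and 1.12% higher, and SCAP lost its call in 13 alternatives (adjusted p 0.053 to 0.2). No member's 4 h change differed between lines by the F test, where 1.84% of all genes did. Without the MDA231 4 h array A 7 members differed, but the share of all genes in that fit is not given here.

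After 24 h of selumetinib, 13 of 29 members rose and 0 fell in MDA231, where 7.36% of all genes were called higher and 10.3% lower. The median member was at 0.31, against 0.02 over all genes, and 26 of 29 were above 0. The 24 h arrays lay wholly above siCONTROL for 18 members, against 16.1% of all genes, and wholly below for 0, against 17.1%. The calls took in 6 of 7 fatty acid genes, 3 of 9 sterol genes, 2 of 5 regulators, 1 of 2 transport genes and 1 of 6 mevalonate genes. The count was 10 to 13 without single arrays, and 10 of the 13 were called under every alternative. The exceptions were ELOVL6, lost without any 1 of the 6 arrays, with the replicate letter as a block, in a fit of MDA231 alone and with array medians aligned (adjusted p 0.052 to 0.1, and 0.059 with the block), FADS2, lost without siCONTROL A, B or C or 24 h B or C (0.051 to 0.11), and HMGCS1, lost without siCONTROL C (0.055). The 6 luminal markers summed to 42.9 to 43.5 in MDA231 24 h arrays and 42.0 to 42.1 in siCONTROL arrays. The 4 mesenchymal markers summed to 45.2 to 45.5 in 24 h arrays and 45.6 to 45.7 in siCONTROL arrays, and the 3 endothelial markers to 14.05 to 14.61 in 24 h arrays and 15.58 to 16.155 in siCONTROL arrays. The 3 blood markers summed to 12.198 to 12.592 in 24 h arrays and 12.005 to 12.107 in siCONTROL arrays. The part of these lists in the rises was not tested.

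SREBF1 rose the most. It read 9.05, 8.83 and 8.94 in MDA231 24 h arrays, against 7.63, 7.65 and 8.04 in siCONTROL arrays, a change of 1.17 (SE 0.19, limma adjusted p 2.5e-05) with no overlap. TM7SF2, a sterol C14-reductase, read 7.91, 7.66 and 7.70 in 24 h arrays, against 6.60, 6.59 and 6.75 in siCONTROL arrays, and rose by 1.11 (SE 0.11, limma adjusted p 1.5e-09). The siDUSP4 arrays of the same line had left this gene at -0.04. LSS read 8.89, 8.98 and 8.81 in 24 h arrays, against 7.94, 8.12 and 8.08 in siCONTROL arrays. It rose by 0.85 (SE 0.10, limma adjusted p 1.1e-07), and every treated array lay above every control array.

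SCD read 11.89, 11.75 and 11.78 in MDA231 24 h arrays, against 11.16, 10.93 and 10.86 in siCONTROL arrays, and rose by 0.82 (SE 0.10, limma adjusted p 7.4e-08). FASN read 9.66, 9.71 and 9.76 in 24 h arrays, against 8.97, 9.07 and 9.17 in siCONTROL arrays. Again the groups did not meet, and the change was 0.64 (SE 0.15, limma adjusted p 0.0016). ACACA, the acetyl-CoA carboxylase that makes malonyl-CoA, read 9.09, 9.06 and 9.08 in 24 h arrays, against 8.42, 8.71 and 8.63 in siCONTROL arrays. It rose by 0.49 (SE 0.09, limma adjusted p 0.00022). FADS1 changed by 0.46 (SE 0.09, limma adjusted p 0.00042) and NPC1 by 0.39 (SE 0.09, limma adjusted p 0.0012), each without overlap.

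The remaining rises in MDA231 at 24 h were INSIG1 at 0.58, DHCR7 at 0.48, FADS2 at 0.44, HMGCS1 at 0.42 and ELOVL6 at 0.36. SREBF2 was at 0.30 and MSMO1 at 0.40, and neither was called. SQLE, which the knockdown lowered in this line, was at -0.18 and FDPS at 0.00, not called. Of the 16 members lowered by the knockdown in MDA231, SCD, INSIG1, FADS2, SREBF1, FASN, FADS1, DHCR7, LSS and NPC1 were called higher at 24 h. But both comparisons use the same siCONTROL arrays, and the share of all genes with both calls was not counted. Against siCONTROL, ACACA and ELOVL6 rose at 24 h while standing at 0.02 and 0.08 with siDUSP4.

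Set directly against the 4 h arrays, which leaves the control arrays out, 17 members were higher at 24 h in MDA231 and 0 were lower, where 20.4% of all genes were called higher and 4.48% lower. The median member differed by 0.48, against 0.12 over all genes. SREBF1 read 9.05, 8.83 and 8.94 at 24 h, against 8.02, 6.64 and 7.10 at 4 h, a difference of 1.69 (SE 0.19, limma adjusted p 7.0e-08). The 4 h arrays were widely spread, with replicate A highest. LSS differed by 0.97 (SE 0.10, limma adjusted p 1.2e-08), FASN by 0.89, TM7SF2 by 0.83, FADS1 by 0.70 and SCD by 0.69. All 5 SREBP regulators were among the 17, SREBF2 at 0.51, SCAP at 0.55, INSIG2 at 0.62 and INSIG1 at 0.45 beside SREBF1. INSIG1 lost its call without 4 h array B or C and in a fit of MDA231 alone (adjusted p 0.068 to 0.14), and INSIG2 without array B (0.14). SCAP lost its call without array B, with the 2 arrays of lowest upper quartile left out and in a fit of MDA231 alone (0.053 to 0.072). The count of 17 fell to 10 without the 4 h array B, the array of lowest upper quartile, and was 19 without array A. By the split of all calls, 3666 genes were higher and 805 lower, but 3086 and 2050 after repeated quantile normalization.

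**Figure D4:**
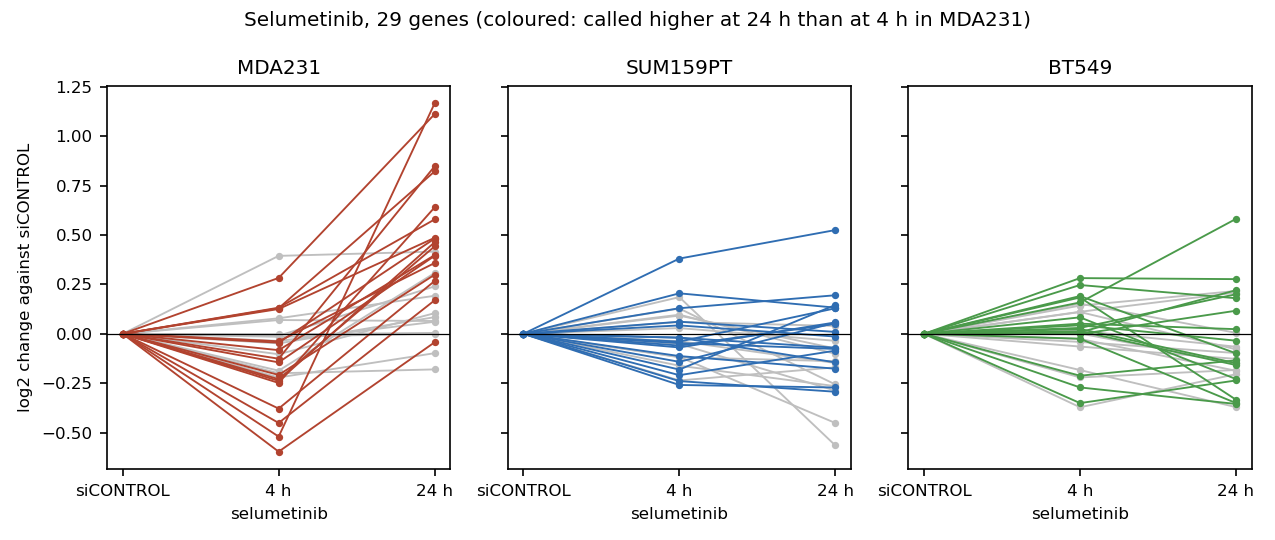
Log2 change against siCONTROL (vertical axis) after 4 h and 24 h of selumetinib for the 29 members in each line, 1 line per member. The 17 members called higher at 24 h than at 4 h in MDA231 are coloured in every panel; SREBF1 reaches 1.17 at 24 h in MDA231, 0.52 in SUM159PT and -0.10 in BT549.

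In SUM159PT at 24 h, 0 members were called higher and 1 lower, where 1.34% of all genes were called higher and 2.94% lower, and the median was -0.08, against -0.01 over all genes. That call was HMGCS1, which read 9.63, 9.37 and 9.67 in 24 h arrays, against 10.08, 10.15 and 10.14 in siCONTROL arrays. It fell by 0.56 on the log2 scale (SE 0.12, limma adjusted p 0.0053), and lost the call without 24 h array B, with an adjusted p of 0.064. SREBF1 read 8.55, 8.77 and 8.65 in 24 h arrays, against 8.07, 8.13 and 8.19 in siCONTROL arrays. These groups did not overlap, but the change of 0.52 (SE 0.19) was not called, at a limma adjusted p of 0.13. Against the 4 h arrays, HMGCS1 was lower by 0.75 (SE 0.12, limma adjusted p 0.00021) and the single call, where 0.685% of all genes were called lower and 2.32% higher.

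In BT549 at 24 h, 1 member was called higher and 2 lower, where 2.66% of all genes were called higher and 12.4% lower. The median member was at -0.10, against -0.09 over all genes. FADS2 read 9.97, 10.76 and 10.41 in 24 h arrays, against 10.20, 9.66 and 9.53 in siCONTROL arrays, and changed by 0.58 (SE 0.15, limma adjusted p 0.0097) with overlapping arrays. HMGCS1 read 7.128, 7.838 and 7.653 in 24 h arrays, against 8.003, 7.852 and 7.877 in siCONTROL arrays, and changed by -0.37 (SE 0.12, limma adjusted p 0.039). NPC1 read 10.63, 10.83 and 10.78 in 24 h arrays, against 11.01, 11.17 and 11.12 in siCONTROL arrays, and fell by 0.35 on the log2 scale (SE 0.09, limma adjusted p 0.0087). Array A was the lowest of the 3 for many members here, for example MVK at 5.93, against 7.02 and 6.78 in B and C. Without it the median member was at 0.07 and neither HMGCS1 nor NPC1 was called. NPC1 also lost its call without siCONTROL B (adjusted p 0.062 to 0.069 in both cases), HMGCS1 without siCONTROL A, B or C, with the replicate letter as a block (0.05), in a fit of BT549 alone and after repeated quantile normalization (up to 0.39 over all alternatives), and FADS2 without siCONTROL B or C or 24 h B or in a fit of BT549 alone (up to 0.071). Repeated quantile normalization gave 6 members higher and 1 lower, and 478 higher and 2235 lower calls over all genes became 555 and 712. Against the 4 h arrays, 0 members were called by limma in BT549, where 1.91% of all genes were called higher and 5.82% lower. At an unadjusted p under 0.05, 1 member was higher and 3 were lower, but the share of all genes at that threshold was not counted.

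The 24 h response differed between lines for 9 of the 29 members by the F test, where 9.91% of all genes did. The MDA231 change exceeded that of BT549 for 9 members and that of SUM159PT for 6, and was lower for 0 in both, where 6.37% and 2.96% of all genes were called higher and 2.6% and 2.52% lower. Against BT549 the differences were 1.26 for SREBF1, 0.99 for FASN, 0.83 for TM7SF2, 0.81 for INSIG1, 0.79 for HMGCS1, 0.75 for NPC1, 0.67 for LSS, 0.64 for ACACA and 0.62 for SCD. Against SUM159PT they were 1.19 for TM7SF2, 0.98 for HMGCS1, 0.84 for SCD, 0.79 for LSS, 0.69 for NPC1 and 0.56 for ACACA. Between SUM159PT and BT549, 0 members differed in limma's test, where 1.27% of all genes were called higher and 0.451% lower in SUM159PT. At an unadjusted p under 0.05, 2 members were higher and 3 lower, but the share of all genes at that threshold was not counted. HMGCS1 was called higher in MDA231 and lower in both other lines, but each of these calls was lost in some alternative. The share of all genes with this pattern was not counted. Averaged over lines, 7 members rose and 1 fell, where 7.24% of all genes were called higher and 19.2% lower. The rises were SREBF1 at 0.53, TM7SF2 at 0.44, LSS and FADS2 at 0.36 each, SCD at 0.34, and FADS1 and DHCR7 at 0.24 each, and SQLE fell by 0.22 on the log2 scale. At 24 h against 4 h, 7 members were higher and 1 lower on average over lines, where 7.65% of all genes were called higher and 4.47% lower. SREBF1 differed by 0.51 on that average, with 1.69 in MDA231, 0.14 in SUM159PT and -0.29 in BT549, and HMGCS1, the one fall, by -0.31. This time difference itself differed between lines for 15 members by the F test, where 28.2% of all genes did.

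The lines also started from different levels, where line and growth medium cannot be told apart. In siCONTROL arrays 24 of 29 members differed between lines by the F test, where 62.7% of all genes did. The mean was highest in SUM159PT for 21 members, in BT549 for 5 and in MDA231 for 3, and lowest in BT549 for 18, in MDA231 for 9 and in SUM159PT for 2. SUM159PT stood above BT549 for 19 members and below it for 4, where 22.3% and 27.9% of all genes did. MDA231 stood above BT549 for 13 and below it for 5, where 21.8% and 26.3% of all genes did, and above SUM159PT for 3 and below it for 15, where 23.1% and 21.7% did.

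INSIG1 averaged 10.11 ± 0.17 in MDA231, 10.34 ± 0.02 in SUM159PT and 8.08 ± 0.06 in BT549 siCONTROL arrays (SD, n = 3 each). MDA231 and SUM159PT did not differ by the test, and BT549 was lower than both, by 2.03 and 2.26. HMGCS1 averaged 8.23 ± 0.05 in MDA231, 10.12 ± 0.04 in SUM159PT and 7.91 ± 0.08 in BT549, and all 3 pairs differed. For SQLE the order was SUM159PT at 10.85 ± 0.02, BT549 at 10.13 ± 0.07 and MDA231 at 8.73 ± 0.12, each step past the threshold. FADS2 went against the general order: it averaged 10.25 ± 0.07 in MDA231, 8.03 ± 0.09 in SUM159PT and 9.80 ± 0.35 in BT549. MVK was at 8.02 ± 0.16 in MDA231, 8.04 ± 0.06 in SUM159PT and 6.57 ± 0.19 in BT549, where the first pair did not differ by the test. SCD averaged 10.98 ± 0.15 in MDA231, 11.51 ± 0.05 in SUM159PT and 10.98 ± 0.10 in BT549, and MDA231 and BT549 did not differ by the test. SREBF2 likewise averaged 8.98 ± 0.10 in MDA231 and 8.97 ± 0.08 in BT549, with SUM159PT at 9.75 ± 0.06. IDI1 was the most variable control, at 10.38, 9.38 and 9.29 in MDA231 arrays A, B and C.

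**Figure D5:**
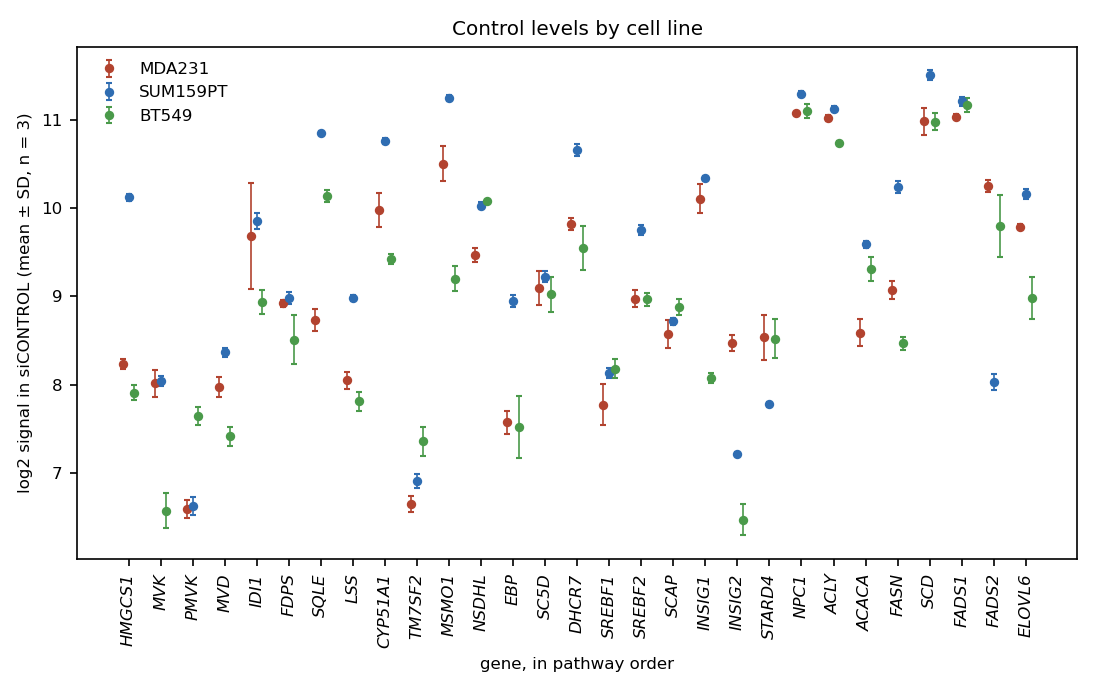
Log2 signal in siCONTROL arrays (vertical axis, mean and SD of 3 arrays) for each member (horizontal axis, in pathway order), by line (colour); levels are comparable between lines for 1 gene, not between genes. SUM159PT has the highest mean for 21 members and BT549 the lowest for 18.

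Of 36 other genes of lipid synthesis and transport, 33 were measured. With siDUSP4, 4 were called higher and 7 lower in MDA231, 0 and 1 in SUM159PT, and 2 and 2 in BT549, with 2 higher and 6 lower on average over lines. Of all genes, 7.86% were called higher and 9.77% lower in MDA231, 1.05% and 1.78% in SUM159PT, 4.97% and 9.22% in BT549, and 7.43% and 11.3% on average. SOAT1, which esterifies cholesterol for storage, changed by 0.45 on average, LBR, a sterol reductase and lamin receptor, by -0.39, MID1IP1, a cofactor of acetyl-CoA carboxylase, by -0.38, and ACSS2, an acetyl-CoA synthetase, by -0.41. In MDA231 alone these 4 were at 0.75, -0.98, -0.67 and -0.73. After 4 h of selumetinib 1 was higher and 10 lower in MDA231, and 1 higher and 3 lower on average. Of all genes, 1.11% were called higher and 14.5% lower in MDA231, and 1.12% and 12.7% on average. After 24 h, 7 were higher and 1 lower in MDA231, 1 and 2 in SUM159PT and 2 and 3 in BT549, with 4 higher and 3 lower on average. The shares of all genes called higher and lower were 7.36% and 10.3% in MDA231, 1.34% and 2.94% in SUM159PT, 2.66% and 12.4% in BT549, and 7.24% and 19.2% on average. LPCAT3, a phospholipid acyltransferase, changed by 0.61 on average at 24 h, with 0.89 in MDA231 and 0.59 in BT549 among its calls. ACSL4, an acyl-CoA synthetase for polyunsaturated fatty acids, changed by -0.35 on average. TECR, a reductase of fatty acid elongation, was at 0.34 and TMEM97, a sterol-regulated membrane protein, at -0.27.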

How the data were processed

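RNA of 36 samples was measured on Affymetrix arrays. The authors deposited 1 table of log2 values per probe; per the submitters' processing notes, RMA and Affymetrix Expression Console 1.1 were used. For RMA options, summary level and annotation build, the entry is: not given in the sources used here. Of 33297 probes, 19181 carried 1 gene symbol in the platform annotation and 2055 several, and 12061 were not listed in it. Only single-symbol probes were used, and 19143 matched RefSeq by gene ID. For each gene the probe of highest mean was kept.

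Groups were taken from the sample titles. Using limma 3.58.1 in R 4.3.3, 12 group means were fitted to all 36 arrays (24 residual and 7.8 prior degrees of freedom), with Benjamini-Hochberg adjustment within each comparison over 17958 genes. The steps were tested on simulated data. Members and gene lists were chosen with earlier results of these data known. Every measured member could be named; up to 8 called members of smallest adjusted p per comparison got full values, and up to 4 other pathway genes per treatment. Over 54 same-letter pairs of arrays the correlation of deviations from group means ran from -0.41 to 0.45, and 12 exceeded 0.1. All 3 letters exceeded it in 1 of 18 pairs of groups, siCONTROL and AZD6244 4h of SUM159PT, where the fit with the letter as a block also called 0 members; the letters were otherwise not taken to pair samples. Alternatives were the arrays of a line alone, repeated quantile normalization, aligned array medians, dim genes left out, the mean of all probes, the letter as a block, and each array left out. Leaving out the 2 arrays of lowest upper quartile was added after seeing the data.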

Additional observations from a re-analysis of the deposited data

Results flagged for a closer look

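With siDUSP4, 16 members had changes that differed between lines by limma's F test, where 15.5% of all genes did. The largest pairwise differences in log2 change, MDA231 minus BT549, were -2.42 for INSIG1, -1.72 for SCD, -1.51 for MVK, -1.40 for STARD4, -1.34 for SREBF2 and -1.34 for FADS2. They were -1.18 for MSMO1, -0.97 for DHCR7, -0.97 for SREBF1, -0.92 for FASN, -0.85 for FDPS, -0.82 for FADS1, -0.53 for LSS and -0.53 for SQLE. INSIG2 differed most between MDA231 and SUM159PT, by -0.84, and TM7SF2 between SUM159PT and BT549, by 0.61.

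The 24 h response differed between lines for 9 members, where 9.91% of all genes did. MDA231 minus SUM159PT was 1.19 for TM7SF2, 0.98 for HMGCS1, 0.84 for SCD and 0.79 for LSS. MDA231 minus BT549 was 1.26 for SREBF1, 0.99 for FASN, 0.81 for INSIG1, 0.75 for NPC1 and 0.64 for ACACA. The difference between 24 h and 4 h of selumetinib differed between lines for 15 members, where 28.2% of all genes did. Groups of 3 arrays were too small for a test of single arrays.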

How the results depend on the processing

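Of 88 called pairs of a member and a comparison, 59 kept their call under every alternative and none changed sign. The siDUSP4 falls in MDA231 (16 members) and the 24 h rises in MDA231 (13) stayed within 1.5 times their counts in every fit, at 13 to 15 and 10 to 13 without single arrays. The values below give members called, with the value reported above in brackets. With the arrays of a line alone, siDUSP4 gave 1 higher (0) and 3 lower (0) in SUM159PT and 3 higher (7) in BT549. 4 h gave 0 higher (1) and 0 lower (1) in MDA231 and 1 higher (0) and 2 lower (0) in SUM159PT. 24 h gave 1 higher (0) and 4 lower (1) in SUM159PT and 0 higher (1) and 1 lower (2) in BT549, and 24 h against 4 h in SUM159PT gave 1 higher (0) and 3 lower (1). After repeated quantile normalization, siDUSP4 gave 3 lower (0) in SUM159PT, 14 higher (7) in BT549 and 2 higher (1) on average. 4 h gave 5 higher (1) in MDA231, 1 lower (0) in SUM159PT, 4 higher (0) and 1 lower (2) on average, and 2 line differences (0). 24 h gave 1 higher (0) and 4 lower (1) in SUM159PT, 6 higher (1) and 1 lower (2) in BT549 and 12 higher (7) on average. 24 h against 4 h gave 2 lower (1) in SUM159PT, 1 higher (0) in BT549, and 11 higher (7) and 2 lower (1) on average. With array medians aligned, 24 h gave 3 lower (1) in SUM159PT and 2 lower (1) on average. With dim genes left out, siDUSP4 in BT549 gave 1 lower (0), 4 h gave 2 higher (1) and 2 lower (1) in MDA231 and 1 higher (0) on average, and 24 h gave 3 lower (1) in SUM159PT and 2 lower (1) on average. With the mean of all probes, 4 h gave 2 higher (1) in MDA231 and 1 higher (0) on average, and 24 h gave 2 higher (1) in BT549. With the replicate letter as a block, 24 h gave 2 lower (1) in SUM159PT and 1 lower (2) in BT549, and 5 of the 88 calls were lost; 12 of 36 arrays correlated best with their own letter. Without the 2 arrays of lowest upper quartile, chosen after seeing the data, siDUSP4 gave 2 higher (0) and 2 lower (0) in SUM159PT, 11 higher (7) and 1 lower (0) in BT549 and 2 higher (1) on average. 4 h then gave 0 lower (1) in MDA231, 1 lower (0) in SUM159PT, 1 lower (0) in BT549, 3 higher (0) on average and 1 line difference (0). 24 h gave 1 higher (0) and 5 lower (1) in SUM159PT, 5 higher (1) and 1 lower (2) in BT549 and 11 higher (7) on average, and 24 h against 4 h gave 3 higher (0) in BT549 and 11 higher (7) on average. Without single arrays, siDUSP4 in BT549 gave 2 to 8 higher and 0 to 1 lower, and its average 1 to 2 higher. 4 h in MDA231 gave 0 to 1 higher and 0 to 11 lower, its average 0 to 1 higher and 1 to 5 lower, and 0 to 7 line differences. 24 h gave 0 to 2 lower in SUM159PT, 0 to 2 higher and 0 to 5 lower in BT549, and 7 to 11 higher and 1 to 3 lower on average. 24 h against 4 h gave 10 to 19 higher in MDA231, 0 to 2 higher and 0 to 2 lower in BT549, and 6 to 14 higher and 1 to 2 lower on average. Over all genes, calls higher and lower were 505 and 1363 after repeated quantile normalization (200 and 2598) at 4 h in MDA231, and 1744 and 1868 (892 and 1656) with siDUSP4 in BT549. With siDUSP4 they were 448 and 637 (189 and 320) in SUM159PT and 2116 and 2485 (1335 and 2022) on average. On average they were 622 and 1205 (202 and 2280) at 4 h and 2156 and 2587 (1301 and 3454) at 24 h. At 24 h they were 613 and 771 (240 and 528) in SUM159PT and 555 and 712 (478 and 2235) in BT549. For 24 h against 4 h they were 1920 and 1429 (1373 and 802) on average. The cause of these shifts was not tested. For the remaining counts in this section, calls over all genes are not given.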

Other observations

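ABCA1, which exports cholesterol from cells, changed by 0.34 in MDA231 and -0.67 in BT549 with siDUSP4, and by 1.11 in MDA231 and -0.56 in BT549 after 24 h of selumetinib. For these treatments ABCA1 stands outside the limit of 4 other pathway genes, and its changes in SUM159PT are not given here. At 24 h against 4 h of selumetinib, 17 of the 33 other lipid genes were higher and 0 lower in MDA231, where 20.4% of all genes were called higher and 4.48% lower, and 11 higher and 0 lower on average over lines, where 7.65% of all genes were called higher and 4.47% lower on that average. The leading ones on average were LPCAT3 at 0.51, ACACB, an acetyl-CoA carboxylase, at 0.38, ABCA1 at 0.28 and MID1IP1 at 0.27.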
